A study of Mus musculus with 5 samples.

Results

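The clustered histone genes of the mouse were followed in RNA from thyroid glands that carried mutant BRAF, and were compared between a high fat diet and a chow diet. The members were all genes of the deposited table whose symbol begins with Hist1h, Hist2h, Hist3h or Hist4h, which gave 66 of the 16413 genes. They comprised 6 linker H1 genes, 18 H2A genes, 18 H2B genes, 12 H3 genes and 12 H4 genes. By the GENCODE vM21 annotation of the mm10 build, 52 members with Hist1 symbols lie on chromosome 13. Those with Hist2 symbols (10) lie on chromosome 3, those with Hist3 symbols (3) on chromosome 11, and Hist4h4 alone on chromosome 6. Hist1h2al, at chr13:51202727-51203065, lies far from the other Hist1 genes, of which Hist1h2ba (chr13:23933773-23934156) is the nearest to it. Of the 66, 2 are annotated as pseudogenes (Hist1h2al and Hist3h2bb-ps).

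All mice had the genotype LSL-BrafV600E;TgCreERT2, in which tamoxifen activates a Cre recombinase fused to a modified estrogen receptor, and Cre removes a stop cassette in front of the mutant Braf allele. Both groups received tamoxifen for 1 week at 8 weeks of age. The high fat diet group (HFD, replicates 2, 9 and 10) ate that diet for 12 weeks, between 10 and 22 weeks of age, and the chow group (NCD, replicates 2 and 8) carried the same alleles and received the same tamoxifen. The labels name no mouse without the mutation and do not say whether each library is a separate animal, so p-values here measure only the spread between these libraries. Counts per library summed to 52663677, 49157018 and 47307084 in HFD replicates 2, 9 and 10, and to 43494747 and 43774210 in NCD replicates 2 and 8. Thyroid follicular cell markers, thyroglobulin among them, were all present and summed to 104307 to 175797 CPM (counts scaled to a common library size) in HFD libraries, against 190430 and 238190 CPM in NCD libraries. Nearly all of each sum was thyroglobulin (Tg), at 102469 to 173593 CPM in HFD libraries, against 188517 and 235601 CPM in NCD libraries. By log2 fold change, HFD over NCD, 7 of the 10 markers were below 0. The 3 above 0 were Slc5a5 (1.36), Foxe1 (0.78) and Nkx2-1 (0.36).

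Histones H2A, H2B, H3 and H4 build the protein core around which DNA winds, and H1 binds the DNA between cores. Most clustered genes are transcribed in S phase, when new DNA has to be packaged, so in a tissue their transcripts are high where cells divide. Their messages usually end in a short hairpin that the stem-loop binding protein holds, in place of a poly(A) tail, and the total RNA kit named in the labels does not select for that tail. Some of the same genes can also yield polyadenylated messages in cells that do not divide. In bulk RNA, fewer cells of a type and less RNA per cell cannot be told apart.

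The hairpins are shown because they set replication-linked messages apart and because members with and without one at the annotated end differed in how they varied between libraries. The search asked for the letters GGNNNTNNTNANNNCC with all 6 stem bases paired, within the last 150 bases of a GENCODE transcript. It found a hairpin in 23 of the 66 members (34.8%), and in 10 of 21810 other coding genes (0.0459%). There were 7 distinct forms, and in the lines below the 16 bases of the hairpin are in capitals, with 5 bases on either side in lower case. The first form was present in 13 members of types H2A, H2B and H3, the second in 3 members (Hist1h2bb, Hist1h2bk and Hist1h3c), the third in 3 H4 genes (Hist1h4f, Hist1h4h and Hist1h4n), and each of the others in 1 member.
Hist1h3b, chr13:23752820-23752835, plus strand: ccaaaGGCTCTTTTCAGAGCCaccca
Hist1h2bb, chr13:23747203-23747218, plus strand: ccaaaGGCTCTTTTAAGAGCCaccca
Hist1h4h, chr13:23531458-23531473, plus strand: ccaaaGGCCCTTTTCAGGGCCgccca
Hist1h3g, chr13:23535889-23535904, plus strand: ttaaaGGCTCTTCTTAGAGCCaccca
Hist1h4a, chr13:23760800-23760815, minus strand: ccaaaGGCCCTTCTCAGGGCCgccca
Hist2h2ac, chr3:96220418-96220433, minus strand: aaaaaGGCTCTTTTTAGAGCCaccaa
Hist1h4b, chr13:23757366-23757381, plus strand: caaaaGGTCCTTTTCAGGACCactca
Coordinates are those of the capitals on mm10. No hairpin form found in H4 genes was found in another type. None of the 6 H1 genes had the hairpin at the annotated end, against 8 H2A, 6 H2B, 4 H3 and 5 H4 genes. When the whole transcript was searched, 45 members held it (68.2%), among them the H1 genes Hist1h1c, Hist1h1d, Hist1h1e and Hist1h1t. Of the 21 that still lacked it, 11 have an annotated model that stops with the coding sequence. A poly(A) signal, AATAAA or ATTAAA in the last 50 bases, was present in 16 members (24.2%), against 17658 of 21810 other coding genes (81.0%), and 3 members had both it and the hairpin.

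The RefSeq promoters, from 250 bases before to 50 bases after the start, were available for 59 of the 66 members on GRCm38.p6. Searched on both strands, CCAAT was present in 51 of 59 members (86.4%), against 41.0% of 26966 other genes. All H1, H2A, H2B and H3 promoters held it (6, 17, 15 and 10), but 3 of 11 H4 promoters did (27.3%). ATTTGCAT, the octamer known to bind POU factors such as Oct-1, was found in 6 of 17 H2A and 7 of 15 H2B promoters, in none of the H1, H3 or H4 promoters, and in 1.92% of other genes. AAACACA, known as the H1 box, was found in 5 of 6 H1 promoters (83.3%), against 8.21% of other genes, and TATAAA in 33 of 59 members (55.9%), against 15.6%. The 120 bases before the start of 3 members are shown because the types differ in these elements, with each of the 4 motifs in capitals.
Hist2h2bb, chr3:96269580-96269699, plus strand: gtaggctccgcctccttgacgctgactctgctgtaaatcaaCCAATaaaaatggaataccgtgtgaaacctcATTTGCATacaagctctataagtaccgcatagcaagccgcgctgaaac
Hist1h1c, chr13:23738687-23738806, plus strand: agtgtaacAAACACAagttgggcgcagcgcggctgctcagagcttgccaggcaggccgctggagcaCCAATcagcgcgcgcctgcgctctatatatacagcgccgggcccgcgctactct
Hist1h4k, chr13:21750554-21750673, minus strand: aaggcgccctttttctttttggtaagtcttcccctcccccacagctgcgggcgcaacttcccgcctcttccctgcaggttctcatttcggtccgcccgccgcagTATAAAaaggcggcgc
A match is a description of the letters and not of binding. H2A and H2B genes also lay head to head, as 11 pairs (22 members) with starts 173 to 302 bases apart (median 251), so each pair shares the stretch between its starts.

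Members differed widely in level. On the FPKM scale, which divides by length, mean levels over the 5 libraries ran from 1.01 to 236, with a median of 22.2. The type medians of mean FPKM were 46.8 for H4, 34.0 for H1, 25.0 for H3, 18.7 for H2A and 13.3 for H2B. Hist1h4d (236) and Hist1h4c (217), 2 of the genes that encode H4, stood highest, followed by Hist1h1c (196), Hist1h4h (147) and Hist1h1e (121). The highest of the other types by mean FPKM were Hist1h3e (87.7), Hist1h3f (50.2) and Hist1h3b (41.4) for H3, Hist1h2bc (63.8), Hist2h2bb (61.9) and Hist1h2bg (47.3) for H2B, and Hist2h2ac (41.6), Hist2h2aa1 (30.5) and Hist2h2aa2 (30.5) for H2A. The lowest mean counts belonged to Hist3h2ba, Hist3h2bb-ps and Hist1h2ba, the last known as a testis-specific H2B. Hist1h1t, the testis-specific H1, was also low, at 2.65 mean FPKM.

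The CPM of all members summed to 1155, 1285 and 1619 in HFD replicates 2, 9 and 10, against 1325 and 1164 in NCD replicates 2 and 8. The means were 1353 ± 239 CPM in HFD libraries (SD, n = 3) and 1245 ± 114 CPM in NCD libraries (SD, n = 2), a log2 ratio of 0.12. HFD replicate 10 was the highest library, and HFD replicate 2 and NCD replicate 8 were close together at the low end. Their order turned with the scaling: on unadjusted totals the sums were 1136, 1313 and 1730 CPM in HFD replicates 2, 9 and 10, against 1316 and 1093 CPM in NCD replicates 2 and 8. No test was made on sums.

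Across the types, H1 was the one whose sums separated by diet, by a narrow margin that depended on the scaling. It remained on unadjusted totals (281.2 CPM in HFD replicate 2, against 281.1 CPM in NCD replicate 2). On library totals without Tg the H1 sums overlapped, since NCD replicate 2 was above HFD replicate 2 (log2 ratio of group means 0.26). Linker H1 transcripts summed to 286, 328 and 369 CPM in HFD replicates 2, 9 and 10, against 283 and 257 CPM in NCD replicates 2 and 8 (means 328 ± 41.5 and 270 ± 18.5 CPM, log2 ratio 0.28). H2A summed to 136, 165 and 243 CPM in HFD libraries, against 185 and 164 CPM in NCD libraries. H2B summed to 166, 225 and 278 CPM in HFD libraries, against 238 and 211 CPM in NCD libraries. In these core types the NCD libraries lay within the HFD spread, and the log2 ratios of the group means were 0.06 for H2A and -0.01 for H2B, the last turning to 0.08 on unadjusted totals. H3 summed to 153, 195 and 273 CPM in HFD libraries, against 206 and 180 CPM in NCD libraries, a log2 ratio of 0.10. Without HFD replicate 10 the log2 ratios were -0.21 for H2A, -0.20 for H2B and -0.15 for H3. H4 summed to 415, 372 and 456 CPM in HFD libraries, against 413 and 353 CPM in NCD libraries, a log2 ratio of 0.11. H4 did not follow the order of the other core types, since HFD replicate 2 was above HFD replicate 9. Its share of all member CPM was 35.9%, 29.0% and 28.2% in HFD replicates 2, 9 and 10, against 31.2% and 30.3% in NCD replicates 2 and 8.

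**Figure D1:**
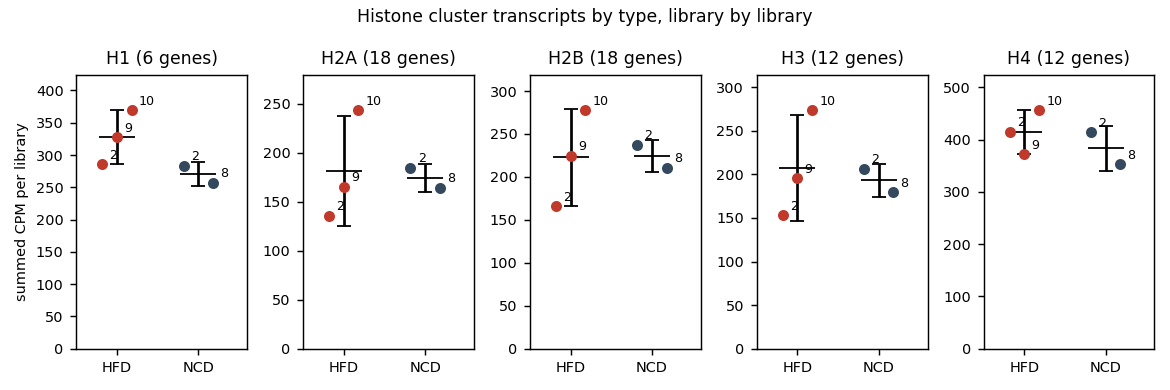
Summed CPM of the clustered histone genes of each type (vertical axis, starting at 0) in the 3 HFD and the 2 NCD libraries. Points are libraries with their replicate number, horizontal lines are group means and error bars are SDs; HFD replicate 10 is highest in every type, and HFD replicate 2 is lowest in H2A, H2B and H3.

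The diets were compared gene by gene with edgeR's quasi-likelihood test and Benjamini-Hochberg adjustment over all 15765 genes tested, with log2 fold changes as HFD over NCD. All 66 members were among the genes tested. At an adjusted p of 0.05, 0 members passed, and 0 of 15765 genes did (0%). At an unadjusted p of 0.05, 1 member was higher (background 2.95%) and 1 was lower (background 2.47%) on the high fat diet. DESeq2 and limma-voom also called 0 members after adjustment. DESeq2 called 96 of the 15767 genes it tested (0.609%).

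By sign alone, the log2 fold change was above 0 for 50 of the 66 members, against 52.7% of all genes, with a median of 0.09 against 0.01 for all genes. This count depended on the model: limma-voom gave 39 of 66, with a median of 0.04. It also depended on single libraries: without HFD replicate 10 it was 14 of 66, without NCD replicate 8 it was 31, and without HFD replicate 2 it was 59. By type, the edgeR count was 6 of 6 H1, 14 of 18 H2A, 10 of 18 H2B, 10 of 12 H3 and 10 of 12 H4 genes, with medians of 0.24, 0.06, 0.03, 0.13 and 0.15. In 4 members the diets did not overlap. Hist1h1e and Hist1h1c lay above (10.6% of all genes did so), and Hist2h2be and Hist2h3c1 lay below (10.3% of all genes).

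Hist1h1e, which encodes linker histone H1.4, had the smallest p of the members. It reached 99.5, 105 and 117 CPM in HFD replicates 2, 9 and 10, against 83.3 and 77.3 CPM in NCD replicates 2 and 8. Every HFD library was above both NCD libraries, with means of 107 ± 9.002 CPM (SD, n = 3) and 80.3 ± 4.27 CPM (SD, n = 2). The log2 fold change was 0.41 (SE 0.11, 95% interval 0.16 to 0.67), with an edgeR unadjusted p of 0.0056 and an adjusted p of 0.618, so it did not pass. Leaving out each library in turn gave log2 fold changes of 0.35 to 0.46. The gene lies at chr13:23620629-23622558 on the minus strand, where the annotated Hist1h2be overlaps it on the same strand, so reads in the overlap could be counted for either gene.

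Hist1h1c, which encodes H1.2, had 141, 161 and 160 CPM in HFD replicates 2, 9 and 10, against 134 and 129 CPM in NCD replicates 2 and 8. The groups did not overlap here either (means 154 ± 10.95 and 131 ± 3.86 CPM). Its log2 fold change of 0.23 had a 95% interval of -0.01 to 0.48 and an edgeR adjusted p of 0.91. Hist1h1d, which encodes H1.3, had 29.8, 34.8 and 55.0 CPM in HFD libraries, against 36.9 and 30.3 CPM in NCD libraries, with HFD replicate 10 alone above the NCD range. The remaining H1 genes named here were chosen after their values were seen, apart from Hist1h1t. Hist1h1a, which encodes H1.1, had 8.52, 16.9 and 21.1 CPM in HFD libraries, against 18.04 and 12.3 CPM in NCD libraries. Hist1h1b, which encodes H1.5, had 4.44, 8.96 and 13.6 CPM in HFD libraries, against 9.03 and 7.03 CPM in NCD libraries. Both were lowest in HFD replicate 2 and highest in HFD replicate 10, unlike Hist1h1c and Hist1h1e. Hist1h1t had 2.38, 1.81 and 2.37 CPM in HFD libraries, against 1.85 and 1.51 CPM in NCD libraries, so HFD replicate 9 lay within the NCD range.

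Among H2B genes, Hist2h2be, whose human counterpart yields a polyadenylated message, had the smallest p of those lower on the high fat diet. It had 9.49, 10.6 and 9.16 CPM in HFD replicates 2, 9 and 10, against 11.9 and 14.0 CPM in NCD replicates 2 and 8. All 3 HFD libraries were below both NCD libraries (means 9.75 ± 0.763 and 13.0 ± 1.43 CPM). The log2 fold change was -0.41 (SE 0.15, 95% interval -0.76 to -0.06), with an edgeR unadjusted p of 0.0273 and an adjusted p of 0.856. It was also not among the members highest in HFD replicate 10. Hist2h2bb, in the same cluster, had 21.04, 33.1 and 37.4 CPM in HFD libraries, against 35.0 and 28.6 CPM in NCD libraries. Hist1h2bg had 17.1, 23.6 and 29.1 CPM in HFD libraries, against 22.2 and 19.5 CPM in NCD libraries. In both genes the NCD values fell inside the HFD range. Hist1h2bf had 3.44, 5.62 and 6.39 CPM in HFD libraries, against 6.23 and 5.74 CPM in NCD libraries, a log2 fold change of -0.22. Hist1h2bc, a long H2B gene model of mean 63.8 FPKM, was nearly level, at 42.4, 40.8 and 46.7 CPM in HFD libraries, against 42.1 and 40.9 CPM in NCD libraries. The lowest H2B genes, Hist1h2ba, Hist3h2ba and Hist3h2bb-ps, stayed at or below 1.14 CPM in every library, and their log2 fold changes were 0.15, -0.64 and -0.30.

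Among H2A genes, Hist2h2ac had 18.4, 17.6 and 24.4 CPM in HFD replicates 2, 9 and 10, against 20.005 and 18.7 CPM in NCD replicates 2 and 8. Hist1h2ac had 9.68, 11.3 and 13.9 CPM in HFD libraries, against 10.4 and 9.32 CPM in NCD libraries, a log2 fold change of 0.24. In each, HFD replicate 10 was highest and the groups overlapped. Hist2h2aa1 and Hist2h2aa2 encode the same protein from near-identical copies, so their counts were summed. The sum was 1761, 1447 and 2438 counts in HFD libraries, against 1556 and 1288 counts in NCD libraries, a log2 ratio of 0.14 on the CPM scale.

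Among H3 genes, Hist1h3b had 12.0, 19.9 and 28.6 CPM in HFD replicates 2, 9 and 10, against 19.5 and 16.6 CPM in NCD replicates 2 and 8. Hist1h3f had 40.9, 46.8 and 56.1 CPM in HFD libraries, against 44.8 and 42.0 CPM in NCD libraries. Hist1h3e varied less, at 40.9, 40.5 and 47.8 CPM in HFD libraries, against 41.1 and 39.6 CPM in NCD libraries. In all 3 genes the groups overlapped, and the log2 fold changes were 0.16, 0.14 and 0.09. Hist1h3c, chosen after its values were seen, ran widest of the H3 genes listed at 1 place, at 8.11, 13.6 and 25.6 CPM in HFD libraries, against 18.5 and 12.1 CPM in NCD libraries.

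Among H4 genes, Hist1h4c had 97.5, 75.7 and 90.0 CPM in HFD replicates 2, 9 and 10, against 81.1 and 69.4 CPM in NCD replicates 2 and 8, with an edgeR unadjusted p of 0.141. Hist1h4h had 75.0, 59.3 and 70.3 CPM in HFD libraries, against 66.6 and 54.4 CPM in NCD libraries. In both, HFD replicate 2 was the highest library of all. Hist1h4d had 86.3, 83.6 and 95.9 CPM in HFD libraries, against 93.8 and 83.4 CPM in NCD libraries, and its log2 fold change lay so near 0 that its sign turned with the scaling. Hist4h4, alone on its chromosome, had 19.0, 20.7 and 19.7 CPM in HFD libraries, against 22.8 and 20.2 CPM in NCD libraries, a log2 fold change of -0.12.

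**Figure D2:**
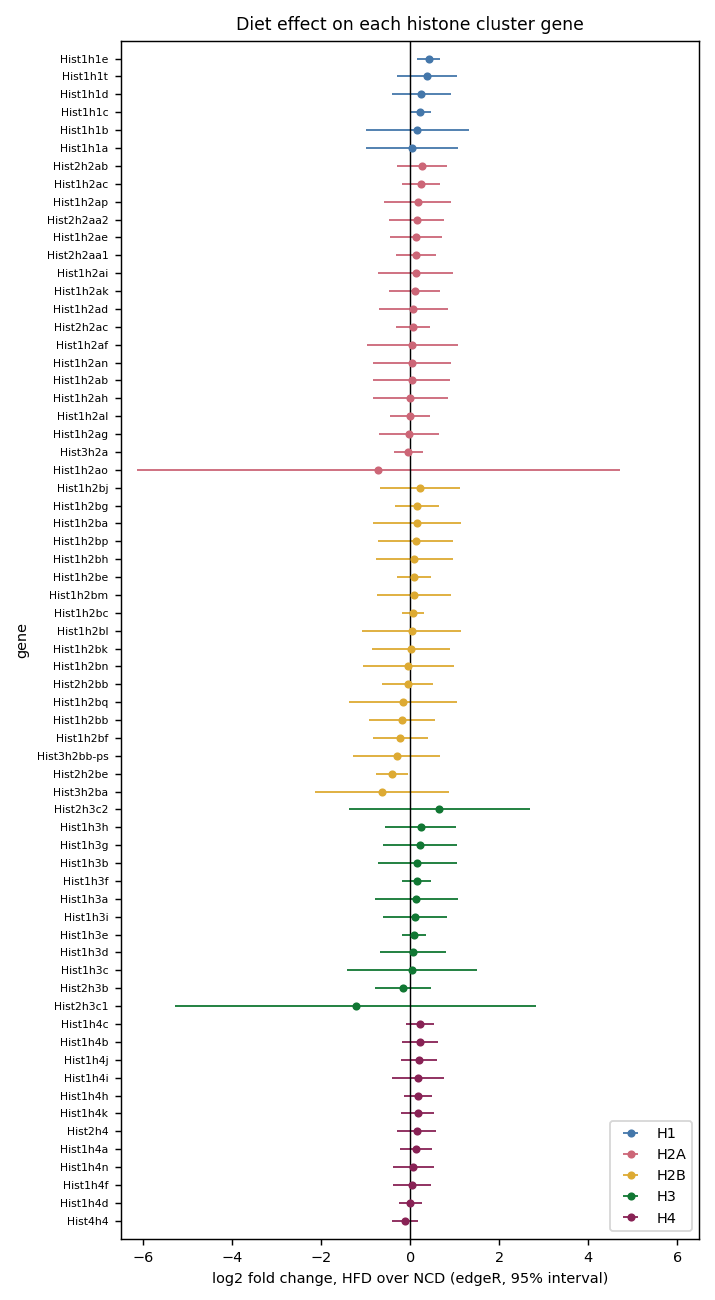
Log2 fold change, HFD over NCD, of each of the 66 members (horizontal axis), with 95% intervals from edgeR, coloured by histone type. Hist1h1e lies at 0.41 and Hist2h2be at -0.41 with intervals that leave out 0, and the widest intervals belong to Hist1h2ao and Hist2h3c1.

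The pattern that ran through most members was a spread among the HFD libraries. HFD replicate 10 was the highest library for 54 of the 66 members, against 29.7% of all genes, and HFD replicate 2 was the lowest for 42 members, against 19.3% of all genes. HFD replicate 10 exceeded HFD replicate 2 in 59 of 66 members (50.8% of all genes), with a median log2 ratio of 0.88 against 0.01 for all genes. The 7 exceptions were Hist1h1t, Hist1h4c, Hist1h4h, Hist2h2be, Hist2h3c1, Hist2h4 and Hist3h2ba. Between the NCD libraries the difference was smaller: replicate 2 exceeded replicate 8 in 60 of 66 members (50.2% of all genes), with a median log2 ratio of 0.22. By type, the median log2 ratio of HFD replicate 10 over HFD replicate 2 was 1.13 for H3, 1.02 for H2B, 0.99 for H2A, 0.56 for H1 and 0.28 for H4. By the cluster named in the symbol it was 1.07 for Hist1, 0.42 for Hist2, 0.08 for Hist3 and 0.05 for Hist4h4.

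**Figure D3:**
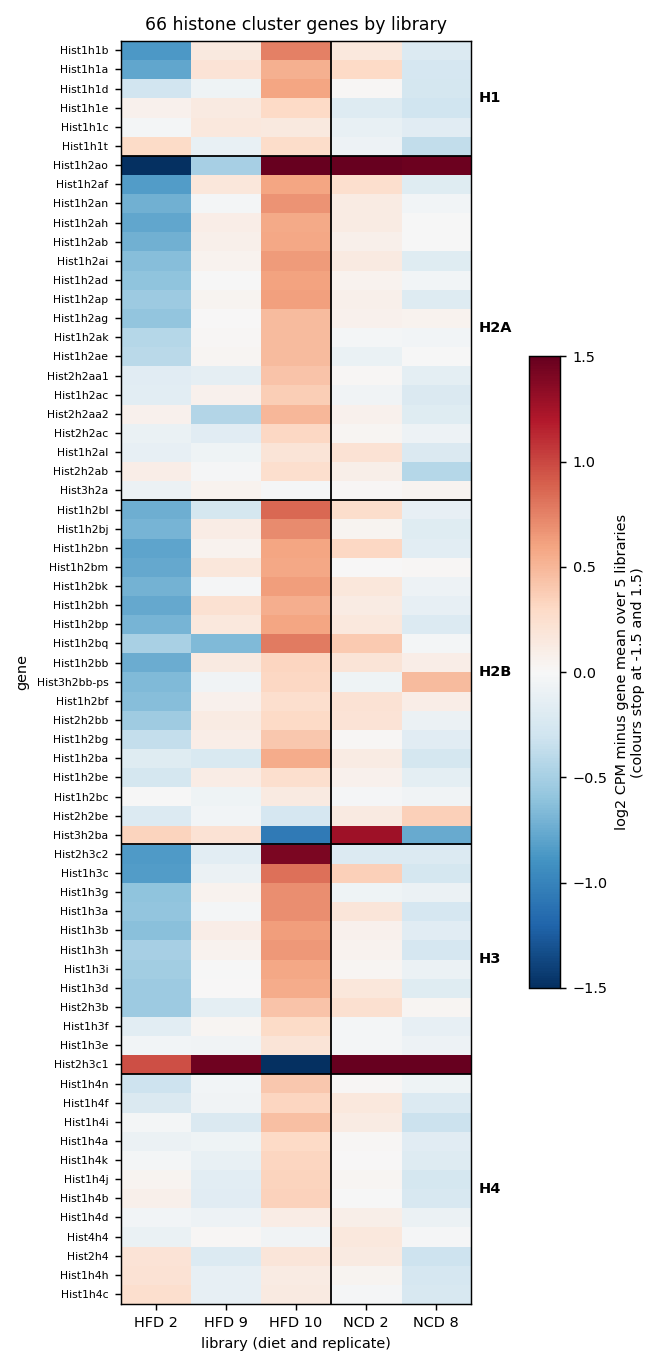
Log2 CPM of each member minus its mean over the 5 libraries (colour, limited to -1.5 and 1.5), with members in rows by histone type and libraries in columns. The HFD replicate 2 column is mostly blue and the HFD replicate 10 column mostly red in H2A, H2B and H3, whereas H4, Hist1h1c and Hist1h1e change little.

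The spread also differed with the annotated end of the transcript. The median log2 ratio of HFD replicate 10 over HFD replicate 2 was 1.16 for the 23 members with the hairpin at the end and 0.73 for the 43 without it. The 20 members with the hairpin and no poly(A) signal summed to 194, 248.7 and 370 CPM in HFD replicates 2, 9 and 10, against 281 and 244 CPM in NCD replicates 2 and 8. The 16 members with a poly(A) signal summed to 359, 369 and 408 CPM in HFD libraries, against 368 and 327 CPM in NCD libraries. HFD replicate 10 was thus 1.91 times HFD replicate 2 for the first set and 1.14 times for the second. The second set held 2 H1 and 6 H4 genes, the types of smallest spread, while the first held no H1 gene. Hist1h1c (141, 161 and 160 CPM in HFD libraries) and Hist1h4h (75.0, 59.3 and 70.3 CPM) made up much of the second sum. Transcript end and histone type were therefore not separated in this comparison. Among the hairpin members, the types also differed in value: the 18 outside H4 were all highest in HFD replicate 10, with a median log2 ratio over HFD replicate 2 of 1.27, while the median of the 5 H4 members was 0.40. These sets were formed from annotated transcripts, which do not always hold the true end of the message, and the differences between sets were not tested.

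Genes of the cell cycle were set beside the histones because replication-linked histone transcripts follow DNA synthesis. All 18 of the G2 and mitosis genes were highest in HFD replicate 10 and lowest in HFD replicate 2, and they summed to 135, 308 and 429 CPM in HFD replicates 2, 9 and 10, against 287 and 252 CPM in NCD replicates 2 and 8. Mki67, the Ki-67 proliferation marker, had 44.4, 120 and 166 CPM in HFD libraries, against 107 and 97.4 CPM in NCD libraries, and was named after its values were seen. As in the summed H2A, H2B and H3 transcripts, HFD replicate 10 was highest and HFD replicate 2 lowest, with both NCD libraries between them. The 24 S phase and replication genes moved less, at 433, 457 and 498 CPM in HFD libraries, against 458 and 458 CPM in NCD libraries, with 15 highest in HFD replicate 10 and 13 lowest in HFD replicate 2. The median log2 ratio of HFD replicate 10 over HFD replicate 2 was 1.67 for the G2 and mitosis genes and 0.36 for the S phase genes. By diet, edgeR called 0 genes of either list at an adjusted p of 0.05 and 0 at an unadjusted p of 0.05. Log2 fold changes were above 0 in 16 of 18 G2 and mitosis genes (median 0.12), against 52.7% of all genes. Of these, Ube2c was at 0.46, Ccnb2 at 0.34, Birc5 at 0.31 and Aurka at -0.23. In the S phase list 13 of 24 genes were above 0 (median 0.01), with Cdt1 at 0.46, Mcm3 at 0.31, Tyms at 0.21 and Mcm4 at 0.15. The G2 and mitosis median was -0.26 without HFD replicate 10, 0.47 without HFD replicate 2, and -0.0016 with limma-voom.

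**Figure D4:**
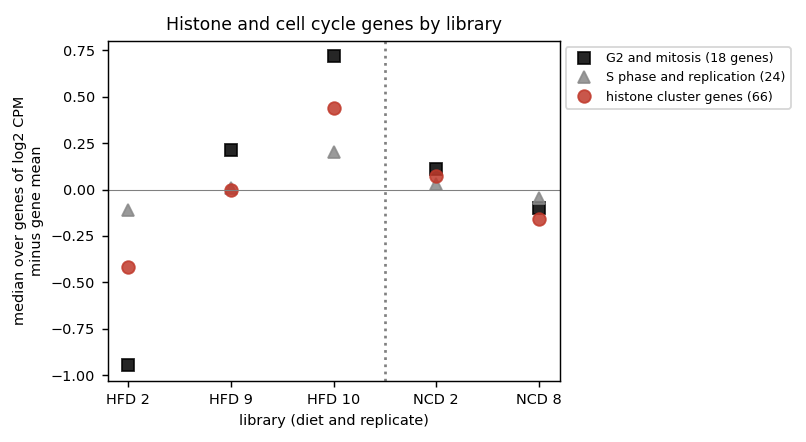
Median over genes of log2 CPM minus each gene's mean over the 5 libraries (vertical axis) for the G2 and mitosis, S phase and histone lists, by library. The histone medians were -0.42, 0.00 and 0.44 in HFD replicates 2, 9 and 10, and 0.07 and -0.16 in NCD replicates 2 and 8, and the G2 and mitosis medians span more, between -0.95 and 0.72.

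Other cell type markers also differed in HFD replicate 10, and the sums of some lists did not overlap between the diets. Airway epithelium markers summed to 2069, 2678 and 7801 CPM in HFD replicates 2, 9 and 10, against 1427 and 1793 CPM in NCD replicates 2 and 8, with 10 of 10 highest in HFD replicate 10. In HFD replicate 10 alone, most of this sum was Muc5b, a mucin gene. Muc5b was at 106, 159 and 4638 CPM in HFD libraries, against 75.7 and 92.4 CPM in NCD libraries. Without it, a sum chosen after seeing the data, the list came to 1963, 2518 and 3163 CPM in HFD libraries, against 1351 and 1700 CPM in NCD libraries. Both airway sums were higher in every HFD library than in either NCD library. The second separation rested on Sftpd, at 1226, 1397 and 1524 CPM in HFD libraries, against 772 and 953 CPM in NCD libraries. With Sftpd also left out, NCD replicate 8 was above HFD replicate 2. Bpifa1, Scgb1a1, Scgb3a1 and Dnah5 overlapped between the diets, and the other airway markers did not. All 10 airway markers had log2 fold changes above 0 (median 0.80). In edgeR, 0 passed an adjusted p of 0.05 and 4 were higher at an unadjusted p of 0.05 (background 2.95%). Sftpd (0.00484) and Tppp3 (0.0469) had adjusted p-values under 0.05 in DESeq2. Neutrophil markers summed to 4.27, 4.38 and 18.3 CPM in HFD libraries, against 9.05 and 5.99 CPM in NCD libraries, with 4 of 4 measured highest in HFD replicate 10. Fibroblast markers summed to 2205, 2844 and 3741 CPM in HFD libraries, against 2971 and 2533 CPM in NCD libraries, with 4 of 6 highest in HFD replicate 10 and 3 of 6 lowest in HFD replicate 2. Macrophage markers summed to 459, 512 and 578 CPM in HFD libraries, against 525 and 428 CPM in NCD libraries, with 3 of 6 highest in HFD replicate 10. Cartilage markers summed to 146, 144 and 187 CPM in HFD libraries, against 119 and 122 CPM in NCD libraries, with 4 of 5 highest in HFD replicate 10. These sums did not overlap between the diets either. They were mostly Comp and Col9a1, at log2 fold changes of 0.39 and 0.33, below the list median of 0.70. In edgeR, 0 of 5 cartilage markers passed an adjusted p of 0.05 and 2 were higher at an unadjusted p of 0.05 (background 2.95%). Adipocyte markers summed to 65.6, 67.5 and 42.3 CPM in HFD libraries, against 93.4 and 115.8 CPM in NCD libraries, with 6 of 7 lowest in HFD replicate 10. The adipocyte sums did not overlap between the diets, and the median log2 fold change of that list was -1.05. Of its genes, 6 of 7 were below 0, and Lep went the other way (0.77). Adipoq and Lep overlapped between the diets. In edgeR, 0 of 7 passed an adjusted p of 0.05 and 4 were lower at an unadjusted p of 0.05 (background 2.47%). Of that list, Cfd (0.000896) and Cidec (0.00494) had adjusted p-values under 0.05 in DESeq2. Of the 10 thyroid follicular cell markers, 6 were lowest and 3 highest in HFD replicate 10 (29.7% of all genes were highest there). The share of all genes lowest in that library was not computed, so the adipocyte and thyroid counts of lowest genes have no background. T and NK cell markers (12.9 to 16.1 CPM in HFD libraries, against 13.6 and 19.98 CPM in NCD libraries) and B and plasma cell markers (7.06 to 9.43 CPM in HFD libraries, against 7.47 and 9.24 CPM in NCD libraries) were low and not highest there. The part of these cells in the histone spread was not tested.

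Near-identical copies limit single members. Of the 55 coding members that had another of the same type and coding length, 47 were at least 95% identical to the nearest one, 6 were identical, and the median was 98.5%. The transcripts of 8 members are listed at more than 1 place in the genome. Hist1h2ao had 4, 96 and 686 counts in HFD replicates 2, 9 and 10, against 413 and 308 counts in NCD replicates 2 and 8, and was named after its values were seen. Hist1h2ap, whose coding sequence is 100% identical over 393 bases, had 268, 388 and 585 counts in HFD libraries, against 344 and 270 counts in NCD libraries. Their sum was 272, 484 and 1271 counts in HFD libraries, against 757 and 578 counts in NCD libraries, again highest in HFD replicate 10 and lowest in HFD replicate 2. The NCD libraries fell inside the HFD range.

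Hist2h3c1, the member of lowest log2 fold change (-1.23, SE 1.43), had 141, 193 and 1 counts in HFD replicates 2, 9 and 10, against 260 and 175 counts in NCD replicates 2 and 8. Hist2h3c2, the member of highest log2 fold change (0.66, SE 0.75), is identical to it over a coding sequence of 411 bases and had 160, 251 and 750 counts in HFD libraries, against 209 and 199 counts in NCD libraries. Summed, the pair had 301, 444 and 751 counts in HFD libraries, against 469 and 374 counts in NCD libraries, and the log2 ratio of mean CPM was -0.02. The opposite extremes of the members by diet therefore met in 1 pair of identical genes. In the authors' deposited table, which gives signed folds of NCD over HFD, Hist1h2ao (3.22) ranks 3 and Hist2h3c1 (2.62) ranks 8 of 16413 genes, with p-values of 0.321 and 0.240. In the authors' deposited table, 1 member, Hist1h1e, had a p under 0.05 (0.0492, signed fold of NCD over HFD -1.28), and the lowest adjusted p of a member was 0.971.

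**Figure D5:**
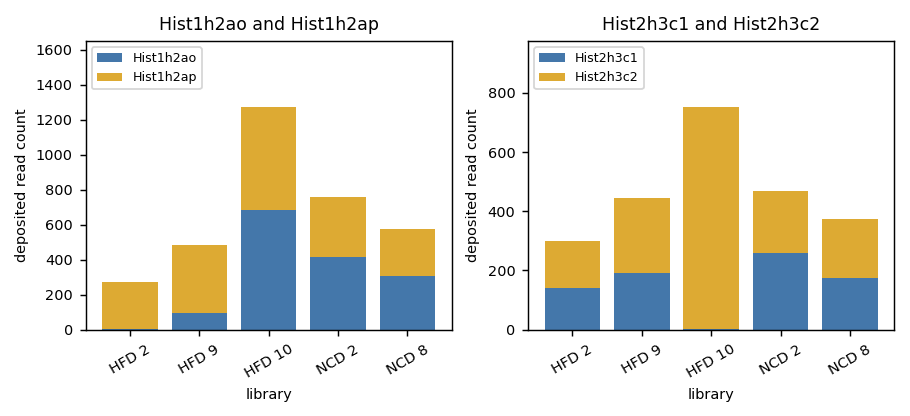
Deposited read counts of the identical pairs Hist1h2ao with Hist1h2ap and Hist2h3c1 with Hist2h3c2 (vertical axis, starting at 0), stacked by library. Hist1h2ao is near 0 in HFD replicate 2 and Hist2h3c1 in HFD replicate 10, while the stacked sums keep HFD replicate 10 highest and HFD replicate 2 lowest.

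Genes that make, read or remove histone messages were also compared, each list by edgeR's quasi-likelihood test over all genes. Of 16 genes of replication-linked 3 prime end processing, 10 had log2 fold changes above 0, 6 below, and the median was 0.05. Ncbp1, the large subunit of the nuclear cap-binding complex, had 59.9, 51.5 and 54.2 CPM in HFD replicates 2, 9 and 10, against 82.6 and 73.5 CPM in NCD replicates 2 and 8, with no overlap. Its log2 fold change was -0.50 (SE 0.11), with an adjusted p of 0.464 in edgeR and 0.0301 in DESeq2. The others of smallest p in that list were Srrt (0.27), Ncbp2 (0.20) and Coil (0.27), and none passed. Slbp, which encodes the stem-loop binding protein and was named after its values were seen, had 27.2, 28.3 and 29.5 CPM in HFD libraries, against 30.1 and 29.3 CPM in NCD libraries, and so did not share the spread of the hairpin members.

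Of 10 histone mRNA decay genes, 2 were above 0 and 8 below (median -0.03), with Lsm1 at -0.17 and Zcchc6, a terminal uridylyltransferase, at -0.13. Eri1, the exonuclease that trims the hairpin end, and Dhx36 were both at -0.05. Of 18 chaperone and deposition genes, 7 were above 0 and 11 below (median -0.01). Hjurp, the chaperone of centromeric CENP-A, was at -0.38, Anp32e and Supt6 were at -0.14, and Ssrp1 was at 0.11. Of 11 histone variant genes outside the clusters, 7 were above 0 and 4 below (median 0.04), with H2afj at 0.40, H1f0 at 0.16, H2afv at -0.24 and H1fx at -1.01. None of the genes in these lists passed an adjusted p of 0.05 in edgeR, and Ncbp1 and Hjurp had an unadjusted p under 0.05, both lower (background 2.47%).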

How the data were processed

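RNA from mouse thyroid glands was made into stranded total RNA libraries, per the labels' protocols. The submitters' processing notes name HISAT2, StringTie, DESeq2 and the build mm10, but the role and version of each tool is not given in the sources used here, nor is the strand setting of the counting. Read counts and FPKM per gene were deposited, and, per the file headers, signed fold values (a score of NCD over HFD) with the authors' p-values. The deposited table lists only genes with at least 1 count in every library. A further 3 columns of per-sample counts match no sample here and were not used.

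The deposited counts were fitted with edgeR 4.0.16 in R 4.3.3 (TMM factors, filterByExpr, robust quasi-likelihood, diet alone). The filter left 15765 of 16413 genes, with Benjamini-Hochberg adjusted p-values taken over them and a threshold of 0.05. Biological variation, as edgeR's common coefficient, was 18.8%. CPM use TMM-adjusted totals, so summed CPM differ from the plain share of a library. Histone counts were 0.109% to 0.173% of each library. DESeq2 1.42.0 and limma-voom (limma 3.58.1) were alternatives.

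Hairpins and copies were read from GENCODE vM21 transcripts and promoters from RefSeq. Windows, motifs and lists are as stated with the results. The members and lists were chosen with earlier results of these data known. The named members were the 3 of highest mean FPKM per type, up to 6 of smallest p per direction, the highest and lowest fold change, and the 3 of lowest mean count. Up to 4 genes of smallest p were named per pathway list. Names chosen after their values were seen are marked. Where reads match several copies, the authors' counting could split them between members. Hist1h2aa, Hist1h2aj, Hist1h2br and Hist1h4m were not analysed here.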

Additional observations from a re-analysis of the deposited data

How the results depend on the processing

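No paired analysis was possible because the groups share only 1 replicate number (2). No member passed an adjusted p of 0.05 under any of the 12 alternatives to the fit. Over all genes, 0 were called by edgeR, 96 by DESeq2, and 0 to 5 when each library was left out. Among the pathway lists DESeq2 called 2 genes (Ncbp1 and Rnu12), and edgeR 0. The members above 0 numbered 50, and 39 with limma-voom. They numbered 14 to 59 when each library was left out, with 31 above 0 without NCD replicate 8. The median log2 fold change of the members then ran from -0.16 to 0.26. The log2 ratios of summed CPM ran from -0.03 to 0.22 for all members, 0.19 to 0.37 for H1, -0.21 to 0.23 for H2A, -0.20 to 0.16 for H2B, -0.15 to 0.28 for H3 and 0.0031 to 0.23 for H4. The hairpin count was 23 within 150 bases and 45 over whole transcripts, a search added after seeing the data. Of the 25 named members, 12 turned in sign: Hist1h4d with upper quartile scaling (0.00014), a stricter filter (0.0026) or none (0.0028), and otherwise only when a library was left out. Those ranges were -0.057 to 0.42 for Hist1h1d, -0.15 to 0.35 for Hist1h2ba, -0.40 to 0.0021 for Hist1h2bf, -0.035 to 0.34 for Hist1h2bg, -0.18 to 0.43 for Hist1h3b, -0.080 to 0.082 for Hist1h4d, -0.088 to 0.23 for Hist2h2aa1, -0.11 to 0.35 for Hist2h2aa2, -0.11 to 0.14 for Hist2h2ac, -0.23 to 0.15 for Hist2h2bb, -0.26 to 1.03 for Hist2h3c2 and -1.31 to 0.70 for Hist3h2ba. The cause was not tested. Histone counts summed to 47835 to 81853 per library, and depth limits mainly Hist3h2ba, Hist3h2bb-ps and Hist1h2ba, the members of lowest count. With 3 and 2 libraries, the spread between libraries limits every comparison.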

Other observations

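Other RNAs that lack a poly(A) tail were measured in the same libraries. Of 22 such genes listed, 10 were in the table, 2 had log2 fold changes above 0 and 8 below on the high fat diet, and the median was -0.31. When each library was left out the median ran from -0.46 (without NCD replicate 8) to -0.13 (without NCD replicate 2). By edgeR's quasi-likelihood test 0 passed an adjusted p of 0.05, and 4 had an unadjusted p under 0.05, all lower (background 2.47%). Rnu12, the U12 RNA of the minor spliceosome, had 18.9, 22.4 and 18.2 CPM in HFD replicates 2, 9 and 10, against 30.9 and 29.5 CPM in NCD replicates 2 and 8. The HFD libraries were all below the NCD libraries, and the log2 fold change was -0.61 (edgeR adjusted p = 0.411, DESeq2 adjusted p = 0.0170). Rnu11, the U11 RNA of the same spliceosome, had 2.59, 2.31 and 2.69 CPM in HFD libraries, against 3.84 and 4.79 CPM in NCD libraries, a log2 fold change of -0.77. Vaultrc5, a vault RNA, and Snord17, a small nucleolar RNA, had log2 fold changes of -0.78 and -0.49. Rpph1, the RNA of RNase P, was at 21950, 14649 and 16138 CPM in HFD libraries, against 19106 and 16520 CPM in NCD libraries.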
